A study of Caenorhabditis elegans with 2 samples.

Results

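The miRNAs described here are those of the mir-1, mir-124 and lsy-6 hairpins of Caenorhabditis elegans, chosen by name as markers of muscle and of neurons. Listed as cel-miR-1, cel-miR-124 and cel-lsy-6 with any arm suffix, they comprise 5 of the 375 mature miRNA loci in the deposited table: miR-1-5p, miR-1-3p, miR-124-5p, miR-124-3p and lsy-6. The worms were whole N2 (wild type) animals with an age given as Day 1, and they received the agent enoxacin or vehicle. Enoxacin is a fluoroquinolone antibiotic known to promote miRNA processing in mammalian cells. Each group was represented by 1 small RNA library, which gives no replicate spread to set a difference against, and no p-value was computed. The submitters mention 3 independent experiments; the sources used here do not say whether their worms were pooled.

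A miRNA hairpin is cut by Dicer into a duplex, of which usually 1 strand, the major arm, is kept in an Argonaute protein and pairs through its seed with target messenger RNAs. miR-1 is conserved from worms to mammals and is made in muscle; in C. elegans it is known to tune acetylcholine receptor subunits and the transcription factor MEF-2 at the neuromuscular junction. miR-124 is a conserved neuronal miRNA, which in C. elegans is found mainly in ciliated sensory neurons. lsy-6 acts in a single taste neuron, ASEL, where it represses the homeobox gene cog-1 and so sets the left-right difference between the ASE neurons.

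Each locus was found in the table with its position, given here for ce10, the build named in the submitters' processing notes. miR-1-3p, of 21 nt, lies on chromosome I from 6172679 to 6172699 on the minus strand, and miR-1-5p, of 22 nt, from 6172718 to 6172739. miR-124-3p, also of 21 nt, lies on chromosome IV from 11871775 to 11871795 on the plus strand, and miR-124-5p, of 23 nt, from 11871732 to 11871754. lsy-6, again of 21 nt, lies on chromosome V from 10647259 to 10647279 on the plus strand. By hairpin name in the WBcel235 annotation, mir-124 lies within trpa-1, a cation channel gene, on the same strand and outside its annotated exons. The hairpins of mir-1 and mir-124 each overlap an exon of a non-coding RNA gene on the opposite strand, T09B4.14 and C29E6.8. The lsy-6 hairpin overlaps no other annotated gene. The sources used here do not say whether reads were counted by strand, so reads of mir-1 or mir-124 and of these opposite-strand RNAs cannot be told apart. Elsewhere, some overlapping loci on opposite strands had equal counts. miR-356a and miR-356b-3p each had 4 reads in enoxacin and 5 in vehicle. A miR-5592-5p locus and the miR-5592-3p locus opposite it each had 102 and 72. The other such miR-5592 pair had 84 and 75 against 89 and 83. Whether strand was ignored in counting was not tested. Each of the 5 miRNAs had a single locus in the table.

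The library totals, recovered from the deposited counts and RPM values (a count scaled to its library's total), were 8787665 reads for enoxacin and 10698845 reads for vehicle. Mature miRNA loci took 332407 reads (3.78%) of the enoxacin total and 400555 reads (3.74%) of the vehicle total. One read was worth 0.114 RPM in enoxacin and 0.0935 RPM in vehicle. Intervals below are exact and two-sided at 95% and cover counting error only. The limit given for a count of 0 is instead a fixed floor of 3 reads, which is lower than the upper bound of such an interval. Without molecular identifiers 2 reads can stem from 1 molecule, so the intervals can be too narrow even for that.

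The muscle miRNA miR-1-3p had the most reads of the 5 loci in both libraries, ahead of the neuronal miR-124-3p, while lsy-6 was not detected. miR-1-3p had 3197 reads (364 RPM) in enoxacin and 4314 reads (403 RPM) in vehicle. It ranked 23rd of the 375 loci in enoxacin and 18th in vehicle. Its share of all miRNA reads was 0.962% in enoxacin (exact binomial interval 0.929 to 0.996%) and 1.08% in vehicle (1.05 to 1.11%). miR-124-3p had 121 reads (13.8 RPM) in enoxacin and 174 reads (16.3 RPM) in vehicle, and ranked 67th in enoxacin and 62nd in vehicle. Its share of miRNA reads was 0.0364% in enoxacin (0.0302 to 0.0435%) and 0.0434% in vehicle (0.0372 to 0.0504%). miR-1-3p and miR-124-3p have the same length, and miR-1-3p had 26.4 reads for each read of miR-124-3p in enoxacin and 24.8 in vehicle. These are ratios of reads, and whether the library method captured different miRNAs equally was not tested.

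The other arms were scarce. miR-1-5p had 54 reads (6.14 RPM) in enoxacin and 63 reads (5.89 RPM) in vehicle, and it ranked 85th in both. miR-124-5p had 1 read in enoxacin and 0 in vehicle, where the floor of 3 reads is 0.280 RPM. No ratio was formed for it.

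No read of lsy-6 was found in the enoxacin or the vehicle library. The floor of 3 reads puts the limit at 0.341 RPM in enoxacin and 0.280 RPM in vehicle. In reads, this limit is 2.48% of miR-124-3p in enoxacin and 1.72% of it in vehicle. The exact interval at a count of 0 reached 0.420 RPM in enoxacin and 0.345 RPM in vehicle. The miRNA of this single neuron was therefore not detectable at this depth in either group, and the groups could not be compared for it. It was 1 of 118 loci in the table with no read in either library.

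**Figure D1:**
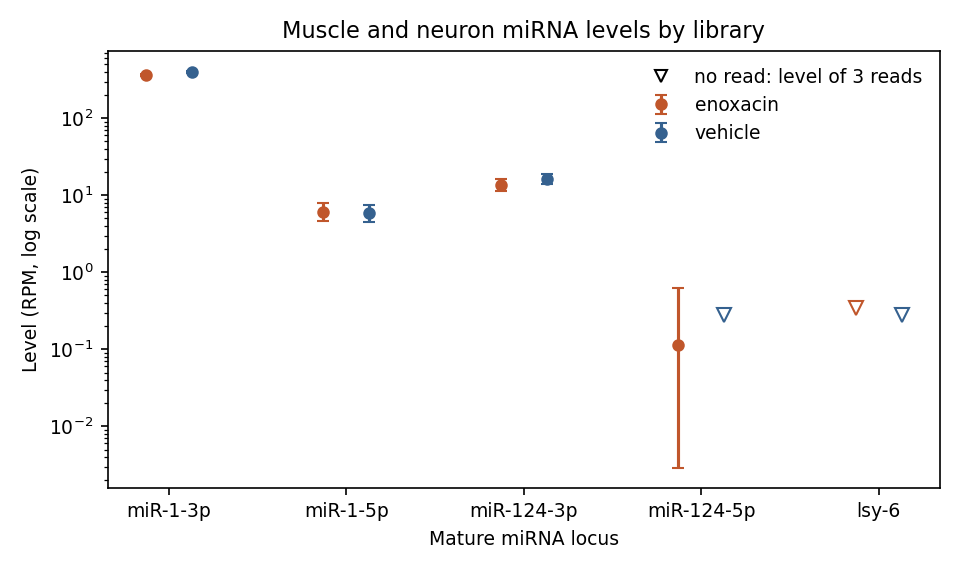
Level of each locus in RPM on a log axis, in the enoxacin library (left of each pair) and the vehicle library (right). Bars are exact 95% Poisson intervals for counting error, and open triangles mark the level of 3 reads where a library had no read. miR-1-3p stands at 364 RPM in enoxacin and 403 RPM in vehicle, miR-124-3p at 13.8 and 16.3 RPM, and lsy-6 has no read in either.

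The enoxacin to vehicle comparison needed 20 reads per locus, summed over the libraries, which 152 of the 375 loci and 3 of the 5 muscle and neuron loci reached (miR-1-3p, miR-1-5p and miR-124-3p). A ratio past 1.5-fold whose counting interval excluded 1 was called higher or lower. By this criterion 21.1% of the 152 loci were called, 13.2% higher and 7.89% lower. A miR-5592-5p locus and the miR-5592-3p locus opposite it, with equal counts, were both called higher. These shares may therefore count some reads more than once. Of the 3 muscle and neuron loci, 0 were called.

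For miR-1-3p the enoxacin to vehicle ratio was 0.902 (0.862 to 0.945), a log2 ratio of -0.15. Its interval lay below 1, so the difference between the libraries was larger than counting error, while its size stayed well inside 1.5-fold. At any fold, the interval excluded 1 for 49.3% of the 152 loci, and it lay below 1 for 17.1% of them. Among the 47 loci with 1000 reads or more in the libraries together, a group picked after the values were seen, it excluded 1 for 41 loci, and for 15 of these it lay below 1. An interval excluding 1 was thus the common case at the read number of miR-1-3p. Of these 47 loci, 12 had a lower ratio than miR-1-3p.

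miR-124-3p had a ratio of 0.847 (0.666 to 1.07), a log2 ratio of -0.24. With the library totals the interval included 1, and it allowed levels in enoxacin between 0.666 and 1.07 times that in vehicle. Whether it included 1 depended on the scaling: its upper bound was 0.984 with median-of-ratios scaling (ratio 0.776) and 0.990 with TMM scaling (0.780), against 1.06 with scaling to the miRNA table and 1.02 with that table less its 3 most abundant loci. The upper bound for miR-1-3p was under 1 with each of these 4 scalings, from 0.866 to 0.935. For miR-1-5p the ratio was 1.04 (0.712 to 1.53), which left its direction undetermined, and its log2 ratio of 0.06 turned below 0 under median-of-ratios scaling (-0.06), TMM scaling (-0.05) and scaling to the miRNA table without its 3 most abundant loci (-0.01).

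The middle of the 152 loci did not sit at a ratio of 1. Their median ratio was 1.09, with quartiles of 0.884 and 1.35, and 56 of the 152 had a ratio under 1. The log2 ratio minus that median was -0.28 for miR-1-3p, -0.37 for miR-124-3p and -0.06 for miR-1-5p. Of the 152 loci, 40 had a lower ratio than miR-1-3p and 32 a lower ratio than miR-124-3p. Both major arms thus lay in the lower part of the distribution, and neither was near its low end.

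**Figure D2:**
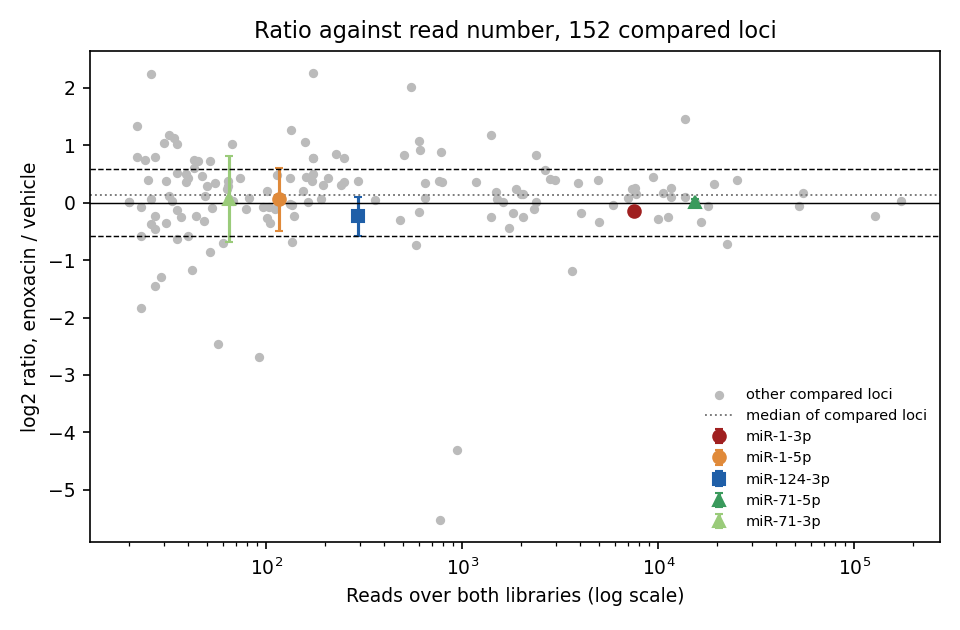
Log2 ratio of enoxacin to vehicle against the reads over both libraries (log axis) for the 152 compared loci. miR-1-3p, miR-1-5p, miR-124-3p and both arms of mir-71 are coloured, with their 95% counting intervals as bars. Dashed lines mark 1.5-fold and the dotted line the median of all compared loci; the coloured points all lie between the dashed lines, with miR-1-3p at -0.15, miR-124-3p at -0.24 and miR-1-5p at 0.06.

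The muscle and the neuron miRNA were set against each other, a comparison in which any scaling of the libraries cancels. The ratio of miR-1-3p over the ratio of miR-124-3p was 1.07, with an exact conditional interval of 0.836 to 1.36 for counting error. With both arms of each hairpin summed it was 1.06 (0.832 to 1.35). No difference between the muscle and the neuron miRNA was detectable, and the reads of miR-124-3p leave any relative ratio between 0.836 and 1.36 possible. Against all other miRNA reads, the relative ratio was 0.892 (0.852 to 0.934) for miR-1-3p and 0.838 (0.659 to 1.06) for miR-124-3p. In a whole-worm library, fewer cells of a type and less of its miRNA per cell cannot be told apart.

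The few loci nearest in level had ratios above 1, though not all of their intervals lay apart from that of the member. They do not stand for all loci of like level: of the 47 loci with 1000 reads or more, 17 had a ratio under 1. The 3 loci nearest to miR-1-3p in mean log2 RPM were lin-4-5p, a timer of larval development, with 410 RPM in enoxacin and 347 RPM in vehicle, miR-77-3p with 429 and 357 RPM, and miR-38-3p of the embryonic mir-35 family with 415 and 375 RPM. Their ratios were 1.18 (1.13 to 1.24), 1.20 (1.15 to 1.26) and 1.11 (1.06 to 1.16), each above 1 with an interval apart from that of miR-1-3p. The 3 nearest to miR-124-3p were miR-63-3p, miR-58-5p and miR-75-3p, with ratios of 1.29 (1.02 to 1.64), 1.29 (0.997 to 1.67) and 1.73 (1.33 to 2.24). Of these 6 neighbours miR-75-3p was called higher and the others were not called. The interval of miR-124-3p overlapped those of miR-63-3p and miR-58-5p and lay below that of miR-75-3p.

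**Figure D3:**
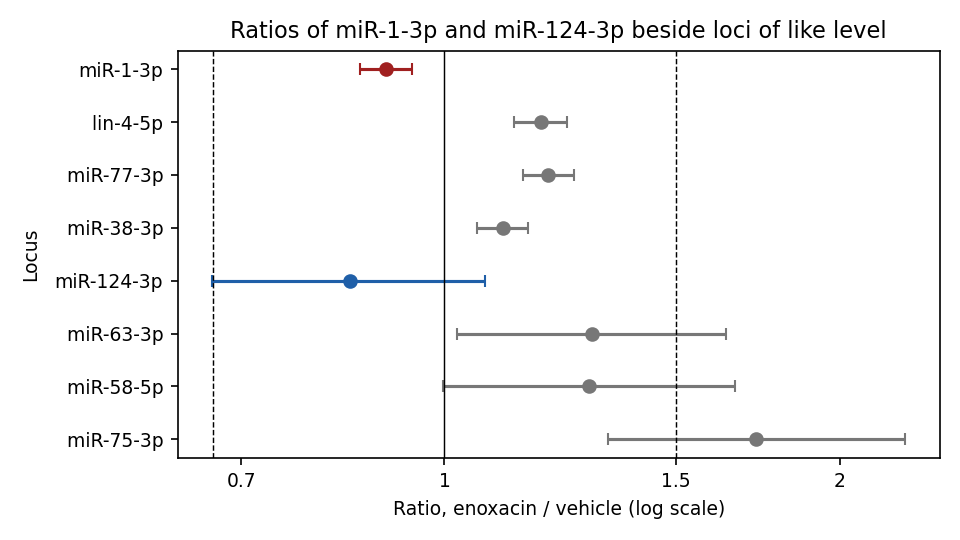
Enoxacin to vehicle ratio on a log axis, with 95% counting intervals, for miR-1-3p and miR-124-3p, each followed by the 3 loci nearest to it in level. Dashed lines mark 1.5-fold in either direction; the ratios of miR-1-3p (0.902) and miR-124-3p (0.847) lie left of 1 and those of the 6 neighbours (1.11 to 1.73) right of it.

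The pattern most like that of each major arm was sought as the nearest log2 ratio, a likeness over 2 libraries only. For miR-1-3p these were miR-241-5p (ratio 0.891), miR-48-5p (0.885) and miR-83-5p (0.913), at log2 distances of 0.02, 0.03 and 0.03. For miR-124-3p they were miR-50-3p (0.837), miR-793 (0.846) and miR-73-5p (0.843), each within a log2 distance of 0.0038. These 6 loci ranged from 26 reads or fewer in vehicle (miR-50-3p, miR-83-5p and miR-73-5p) to 2343 reads (miR-48-5p), and the intervals of all but miR-48-5p included 1.

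The balance of the 2 arms was read from the mir-1 hairpin. The 5p arm made up 1.66% of mir-1 reads in enoxacin (1.3 to 2.2%) and 1.44% in vehicle (1.1 to 1.8%). The ratio of 5p to 3p reads in enoxacin, relative to vehicle, was 1.16 (0.787 to 1.70), so no shift between the arms was detectable. Of the 49 hairpins with at least 20 reads for each arm, 11 (22.4%) had an interval of this value that excluded 1. Both mir-5592 hairpins, which overlap on opposite strands, are among the 49. Over both libraries the minor arm of mir-1 was 1.53% of its reads, beside a median of 1.79% over the 49 hairpins, and 22 of them had a smaller one. This median depends on the minimum of 20 reads per arm. The minimum left out abundant hairpins with a scarce minor arm, such as mir-66 (0.0055%), mir-2 (0.0359%) and let-7 (0.0752%). It also left out hairpins with few reads and a larger share, such as mir-230 (18.4%). The place of mir-1 among all hairpins is therefore not given by these values. For mir-124 the 5p arm was 1 of 122 reads in enoxacin (0.820%, 0.0208 to 4.48%) and 0 of 174 reads in vehicle (exact upper bound 2.10%; the floor of 3 reads is 1.72%). Summed over arms, mir-1 had 370 RPM in enoxacin and 409 RPM in vehicle (ratio 0.904, 0.864 to 0.946), and mir-124 had 13.9 RPM in enoxacin and 16.3 RPM in vehicle (0.854, 0.672 to 1.08).

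**Figure D4:**
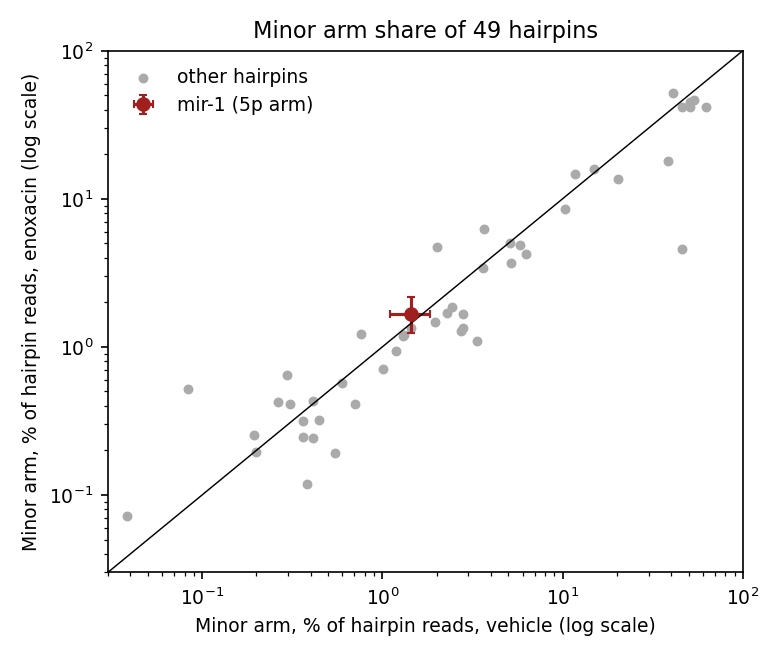
Share of hairpin reads from the minor arm (the arm of the hairpin with fewer reads in all), in percent on log axes, in enoxacin (vertical) against vehicle (horizontal) for 49 hairpins; the line marks equal shares. mir-1, with 95% binomial intervals, stands on the line within its error, at 1.66% in enoxacin and 1.44% in vehicle.

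The other miRNAs associated with neurons gave a limited picture around miR-124 and lsy-6. The list holds mir-124, lsy-6, mir-273, mir-234, mir-791 and mir-71, with 10 loci in all. Of these, 3 reached the minimum: miR-124-3p and both arms of mir-71. None of the 3 was called in either direction, beside 21.1% of all 152 loci, and 3 loci are too few to tell the list apart from that share. The median ratio of the 3 loci was 1.01, beside 1.09 over all 152 loci. miR-71-5p, which is known for AWC olfactory neuron asymmetry and for lifespan and is also made outside neurons, had 791 RPM in enoxacin and 786 RPM in vehicle (1.01, 0.976 to 1.04), and miR-71-3p had 30 reads in enoxacin and 35 in vehicle (1.04, 0.619 to 1.75). Relative to miR-71-5p, the ratio was 0.896 (0.847 to 0.947) for miR-1-3p and 0.840 (0.659 to 1.07) for miR-124-3p.

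The remaining miRNAs of the neuron list were at or near 0, as lsy-6 was. miR-273, described in the ASE neurons as lsy-6 is, had 0 reads in enoxacin and in vehicle. miR-234-3p, a broadly neuronal miRNA linked to neuropeptide release, had 2 reads in each library and its 5p arm none. miR-791, known from carbon dioxide-sensing neurons, had 2 reads of its 3p arm in each library, and of its 5p arm 4 in enoxacin and 2 in vehicle. miR-796, known as the second C. elegans miRNA of the miR-1 seed family, had 3 reads in enoxacin and 1 in vehicle, too few for a ratio. Almost all reads of that family therefore came from mir-1.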

How the data were processed

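Small RNA libraries of whole worms, 1 per group, were made with a SOLiD kit from 10 µg of total RNA each, per the labels' protocols. The submitters' processing notes name Bowtie2, bedtools and the build ce10; of versions, filters and multiply matching reads nothing is said there. The authors deposited raw read counts per mature miRNA locus, and RPM values that equal each count divided by 1 total per library. The deposited ratio matched the one computed here for every locus with reads in each library; the deposited log2 is that of this ratio, with no pseudocount, and is not the log2 ratio printed here. Vehicle is the column with the control header.

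Ratios used these totals and exact conditional binomial (Clopper-Pearson) intervals at 95%; for log2 ratios 0.5 reads were added to each count. Calls used a minimum of 20 reads and a 1.5-fold threshold. Ratios between 2 loci used exact conditional odds ratio intervals. The members, lists and tests were chosen with earlier results of these data known. Named were all members, the 3 nearest loci in level and in ratio of each major arm, and the tissue lists. Seed mates were to be found by sequence; no sequence was used here, and miR-796 was named from background knowledge. Alternatives were median-of-ratios scaling, TMM (edgeR 4.0.16, R 4.3.3), scaling to the miRNA table (whole, or less its 3 most abundant loci), a pseudocount of 1, minimums of 1 and 100 reads, a higher threshold of 2 and a lower one, and summed arms. Python 3.11.15, numpy 2.4.6, pandas 2.3.3, scipy 1.17.1 and matplotlib 3.10.9 were used.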

Additional observations from a re-analysis of the deposited data

How the results depend on the processing

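None of the 25 values computed for miR-1-3p, miR-1-5p, miR-124-3p and the summed arms under the 4 other scalings and the pseudocount of 1 passed the criterion. The log2 ratio of miR-1-3p was -0.15 with the library totals, -0.27 with both median-of-ratios and TMM scaling and -0.22 with the miRNA table less its 3 most abundant loci, and that of mir-1 with summed arms was -0.15, -0.27, -0.26 and -0.22. The counting interval of miR-124-3p included 1 with the library totals and excluded it with median-of-ratios and TMM scaling, and so did that of mir-124 with summed arms (upper bounds 1.08, 0.992 and 0.997). Median-of-ratios and TMM scaling shifted all loci by -0.13 and -0.12 on the log2 scale. The limit for lsy-6 becomes 9.03 in enoxacin and 7.49 in vehicle when scaled to all miRNA reads, and 17.1 and 14.8 without the 3 most abundant loci, since the denominator is smaller. Over all loci, the 20 higher and 12 lower turned into 12 higher with a 2-fold threshold, 35 higher with the lower one, 6 lower at a minimum of 100 reads and 13 higher and 7 lower with arms summed, the last 2 with fewer features compared. The neuron list had 0 called under all 10 alternatives, with 2 to 7 features compared, too few to set against the share over all loci. No paired analysis was possible because each group had 1 library, and for the same reason no replicate could be left out.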

Other observations

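The miRNAs of other tissues, listed by name, are given here for their values, and their difference from the muscle and neuron miRNAs was not tested. mir-60 of the intestine had 104 RPM over both arms in enoxacin and 47.2 RPM in vehicle (ratio 2.21, 1.98 to 2.47). Its miR-60-3p was called higher, as were 13.2% of the 152 loci, and its scarce miR-60-5p was not called (0.716, 0.293 to 1.66). The gonad and spermatheca list (mir-240 and mir-786) had 30.4 RPM in enoxacin and 20.4 RPM in vehicle (1.49, 1.24 to 1.79), with miR-240-3p called higher (1.80, 1.37 to 2.37). In that list miR-240-5p (1.24, 0.928 to 1.66) and miR-786-3p (1.66, 0.926 to 3.02) were not called. miR-786-5p, with 3 reads in enoxacin and 8 in vehicle, was not compared. mir-228 of epidermis and glia had 123 RPM in both libraries (1.00, 0.925 to 1.09). The mir-35 to mir-42 hairpins of embryo and germ line had 5355 RPM in enoxacin and 5666 RPM in vehicle (0.945, 0.934 to 0.957), a sum whose members went both ways. Among its major arms miR-35-3p (0.795), miR-36-3p (0.964), miR-37-3p (0.824) and miR-42-3p (0.790) had ratios under 1, and miR-38-3p (1.11), miR-39-3p (1.07), miR-40-3p (1.32) and miR-41-3p (1.18) had ratios above 1. Of its 14 compared loci, miR-37-5p was called higher and miR-38-5p lower, beside 13.2% and 7.89% of the 152 loci. miR-40-5p, with 2 reads in enoxacin and 17 in vehicle, and miR-42-5p, with 2 and 6, were not compared. With 1 library per group, the spread between worm cultures is not known for any of these.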
